A study of Mus musculus with 14 samples.

Results

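The 9 genes described here encode transcription regulators known from the progenitors, the patterning or the neurons of the cerebral cortex. They were followed across astrocytes, the other cells and whole tissue of the cortex of mice at 14 days of age. They are Lhx2, Emx1, Emx2, Pax6, Pou3f2, Pou3f3, Rorb, Nr2f1 and Hopx, found by symbol in a table of 32830 genes. They were named as cortical progenitor factors that stay on in astrocytes or neurons, with their levels in the sorted cells already known. Their levels by cell fraction are therefore a description without a test, and the tests concern differences between cortical layers.

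All animals were of the SW strain and carried Aldh1l1-GFP, a transgene in which the regulatory region of the astrocyte enzyme gene Aldh1l1 drives green fluorescent protein. Upper and deep cortical layers were separated by hand. Upper layer astrocytes and deep layer astrocytes are GFP-positive sorted cells (n = 3 libraries each), upper and deep layer non-astrocytes are GFP-negative sorted cells (n = 2 each), and upper and deep layer bulk tissue is the undissociated layer (n = 2 each). No animal received a treatment, and the labels do not say whether replicates are separate animals or pools, so the p-values rest on the spread between libraries, part or all of which may be technical. Levels are normalised read counts, that is reads per gene after division by 1 scaling factor per library, and libraries held 18226457 to 30316765 reads in genes.

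During development a small set of transcription factors divides the wall of the forebrain into territories. In the dorsal part, radial glia, the stem cells of the cortex, express LIM, empty spiracles and paired-box homeodomain proteins. POU domain proteins and orphan nuclear receptors also take part, and some of them act in particular layers of neurons. Cortical astrocytes arise from these radial glia, and several of the same genes are known to remain active in them after birth.

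The markers that define the fractions set the scale for what follows. The summed level of 10 astrocyte markers was 1014229 to 1498321 in astrocytes, against 28118 to 35474 in non-astrocytes and 203631 to 242214 in bulk tissue. The summed level of 10 neuron markers was 582 to 845 in astrocytes and 4495 to 9850 in non-astrocytes, against 128794 to 167198 in bulk tissue. By these neuron markers, the non-astrocytes held little neuronal RNA beside bulk tissue. Microglial markers (160446 to 229361) and mural cell markers (212575 to 283959) were high in the non-astrocytes. Oligodendrocyte markers summed to 50997 to 147180 there, against 38104 to 149351 in bulk tissue. None of the marker genes summed here was at 0 in all libraries of a fraction. In bulk tissue, fewer cells of a type and less RNA per cell cannot be told apart.

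The promoters of 3 of the genes are shown because Pou3f2 and Rorb are the 2 that differed between layers of bulk tissue, and Pou3f3 is the paralogue of Pou3f2. Each run is the 250 bases before a RefSeq start of the gene (GRCm38.p6), read 5′ to 3′ on the strand of the gene, with the letters CCAAT or their reverse complement in capitals. Pou3f2 lies at chr4:22488367-22488616 on the minus strand, Pou3f3 at chr1:42695518-42695767 on the plus strand and Rorb at chr19:19111197-19111446 on the minus strand, and none of these windows overlaps an annotated gene.
Pou3f2: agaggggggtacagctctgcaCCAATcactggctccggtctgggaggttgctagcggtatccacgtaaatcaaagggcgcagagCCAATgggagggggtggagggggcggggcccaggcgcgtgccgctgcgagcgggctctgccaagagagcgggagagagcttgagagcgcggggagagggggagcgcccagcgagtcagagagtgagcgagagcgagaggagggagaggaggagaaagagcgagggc
Pou3f3: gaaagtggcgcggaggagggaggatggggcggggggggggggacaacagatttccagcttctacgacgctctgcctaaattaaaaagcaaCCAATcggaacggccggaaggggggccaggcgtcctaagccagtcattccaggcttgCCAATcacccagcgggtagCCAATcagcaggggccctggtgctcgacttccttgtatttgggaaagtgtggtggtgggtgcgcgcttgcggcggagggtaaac
Rorb: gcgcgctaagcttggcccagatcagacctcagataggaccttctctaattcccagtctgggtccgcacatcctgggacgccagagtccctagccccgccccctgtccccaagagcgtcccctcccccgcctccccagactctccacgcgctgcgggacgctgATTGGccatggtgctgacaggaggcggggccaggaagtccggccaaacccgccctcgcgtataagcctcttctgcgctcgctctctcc
CCAAT stood 2 times in the Pou3f2 window, 3 times in that of Pou3f3 and 1 time in the Rorb window shown. Rorb has a further RefSeq start, whose window (chr19:19001118-19001367) is not shown and holds no CCAAT. It was searched on both strands, chosen after these sequences had been read, and was present in 7 of the 14 windows of the 9 genes and in 33.8% of 32851 windows of all genes. The other letters searched, the homeodomain core TAATTA, the nuclear receptor element AGGTCA and the octamer ATGCAAAT, were in 0 of the 14 windows and in 4.84%, 14.0% and 1.60% of all windows. Only CCAAT had matches in the 14 windows, so matches of different motifs could not overlap. A match says only which letters a window holds.

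Among the homeodomain genes, Lhx2, a LIM homeodomain factor that specifies cortical identity in progenitors, was high in every astrocyte library. It lies on chromosome 2 (38339281 to 38369733, plus strand, GRCm38, as for all gene positions here). Its level was 3511, 5579 and 4434 in upper layer astrocytes and 3069, 4376 and 3384 in deep layer astrocytes. It was 209 and 159 in upper layer and 141 and 166 in deep layer non-astrocytes, and 2450 and 2346 in upper layer and 1292 and 1670 in deep layer bulk tissue. All 6 astrocyte libraries lay above all bulk libraries, which lay above all non-astrocyte libraries. The mean in astrocytes was 24.1 times that of non-astrocytes and 2.09 times that of bulk tissue.

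Emx2, a homeodomain factor that positions cortical areas in the embryo (chromosome 19, 59458372 to 59465357, plus strand), had the highest ratio of astrocytes to non-astrocytes among the 9 genes. Upper layer astrocytes had 1567, 1968 and 1912, and deep layer astrocytes 1139, 1437 and 1345. Non-astrocytes had 35.3 and 61.9 in the upper layer and 38.8 and 27.3 in the deep layer, and bulk tissue 422 and 496 in the upper layer and 303 and 245 in the deep layer. The 3 fractions did not overlap. Every upper layer astrocyte library lay above every deep layer one, and the share of all genes with this order was not counted. Astrocytes stood at 38.2 times the non-astrocyte level and at 4.26 times the bulk level. Emx2 shares 264 bases, 8.79% of its exon length, with the antisense gene Emx2os, and the strand setting of the counting is not given in the sources used here. Reads of the 2 genes therefore cannot be told apart there.

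Emx1, its paralogue (chromosome 6, 85187438 to 85204462, plus strand), went the other way. This gene marks progenitors and excitatory neurons of the dorsal forebrain. Its level was 7.64, 0 and 5.51 in upper layer astrocytes and 4.72, 0 and 6.34 in deep layer astrocytes, against 11.5 and 10.8 in upper layer and 4.05 and 5.46 in deep layer non-astrocytes. Bulk tissue held 239 and 149 in the upper layer and 143 and 167 in the deep layer. The 2 libraries at 0 allow levels of up to 3.27 and 4.26, the worth of 3 reads, and these limits cover counting error only. Sorted cells of both kinds thus stood near the detection limit while every bulk library was above 140. The astrocyte mean was 2.31% and the non-astrocyte mean 4.55% of the bulk mean. Neuron markers had an astrocyte level of 0.0810% to 7.44% of bulk (median 0.297%) and a non-astrocyte level of 2.45% to 6.46% (median 4.90%), so Emx1 lay within both ranges and, in astrocytes, above the median. The description of the 9 genes as shared with astrocytes therefore does not hold for Emx1 in these data.

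Pax6, a paired-box factor of dorsal radial glia (chromosome 2, 105668900 to 105697364, plus strand), had 2082, 2302 and 1893 in upper layer astrocytes and 2102, 2052 and 1641 in deep layer astrocytes. Non-astrocytes had 239 and 161 in the upper layer and 191 and 144 in the deep layer. Bulk tissue had 382 and 359.6 in the upper layer and 379 and 400.0 in the deep layer. The bulk libraries were tightly grouped and well below the astrocytes. Of the 9 genes, Pax6 had the highest ratio of astrocytes to bulk tissue, 5.29, and the ratio to non-astrocytes was 10.96.

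Both POU domain genes were also led by astrocytes. Pou3f2 (chromosome 4, 22482780 to 22488366, minus strand) and Pou3f3 (chromosome 1, 42695768 to 42703176, plus strand) encode factors of late progenitors and of upper layer neurons. Pou3f2 stood at 1867, 2043 and 1664 in upper layer astrocytes and 1848, 2306 and 2042 in deep layer astrocytes. It stood at 180.4 and 226 in upper layer and 189 and 149 in deep layer non-astrocytes, and at 1278 and 1200.0 in upper layer and 609 and 572 in deep layer bulk tissue. The fractions did not overlap, and the 2 bulk layers lay wide apart while the astrocyte layers interleaved. Pou3f3 stood at 4608, 5392 and 4479.6 in upper layer astrocytes and 3843, 6315 and 3749 in deep layer astrocytes. In non-astrocytes it was 258 and 318 in the upper layer and 279 and 363 in the deep layer, and in bulk tissue 1644 and 1953 in the upper layer and 1210.1 and 1349.7 in the deep layer. Again astrocytes lay above bulk tissue and bulk tissue above non-astrocytes in every library. The mean in astrocytes was 10.5 times that of non-astrocytes for Pou3f2 and 15.5 times for Pou3f3, and 2.14 and 3.07 times that of bulk tissue.

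The orphan nuclear receptors were the genes for which bulk tissue came closest to astrocytes. Rorb (chromosome 19, 18930605 to 19111196, minus strand) is known from the neurons of the cortical layer that receives thalamic input. It had 12873, 16402 and 15535 in upper layer astrocytes and 12339, 25095 and 14352 in deep layer astrocytes, and 1887 and 1951 in upper layer and 1334 and 727 in deep layer non-astrocytes. Bulk tissue had 11982 and 14108 in the upper layer and 4264 and 5015 in the deep layer. Upper layer bulk tissue overlapped the astrocyte range and deep layer bulk tissue lay far below it. Nr2f1, the COUP transcription factor that sets sensory areas (chromosome 13, 78188973 to 78199757, minus strand), had 1095, 1362 and 1161 in upper layer astrocytes and 965, 1182 and 1055 in deep layer astrocytes. Non-astrocytes had 256 and 312 in the upper layer and 209.6 and 211 in the deep layer, and bulk tissue 1140.0 and 1055 in the upper layer and 706 and 722 in the deep layer. Upper layer bulk tissue again overlapped the astrocytes, and deep layer bulk tissue lay below them. Astrocytes stood at 10.9 times the non-astrocyte level for Rorb and 4.60 times for Nr2f1, and at 1.82 and 1.26 times the bulk level. Nr2f1 shares 123 bases, 2.42% of its exons, with A830082K12Rik on the other strand.

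Hopx, a small homeodomain protein that does not bind DNA and marks outer radial glia in primates (chromosome 5, 77086988 to 77115121, minus strand), had the lowest ratio of astrocytes to non-astrocytes among the 8 genes higher in astrocytes. Upper layer astrocytes had 477, 441 and 298 and deep layer astrocytes 500.4, 580.1 and 306. Non-astrocytes had 117 and 238 in the upper layer and 149.7 and 274 in the deep layer, and bulk tissue 134 and 233 in the upper layer and 122 and 209.7 in the deep layer. The third replicate was the lowest astrocyte library in both layers, and in the other fractions the second replicate was above the first in both layers. The astrocyte mean was 2.23 times that of non-astrocytes and 2.48 times that of bulk tissue, and the non-astrocytes, at 111% of bulk tissue, overlapped it. Hopx shares 412 bases, 27.2% of its exons, with Hopxos, which was at 0 to 5.45 in astrocytes, 0 to 0.909 in non-astrocytes and 0.924 to 4.01 in bulk tissue.

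**Figure D1:**
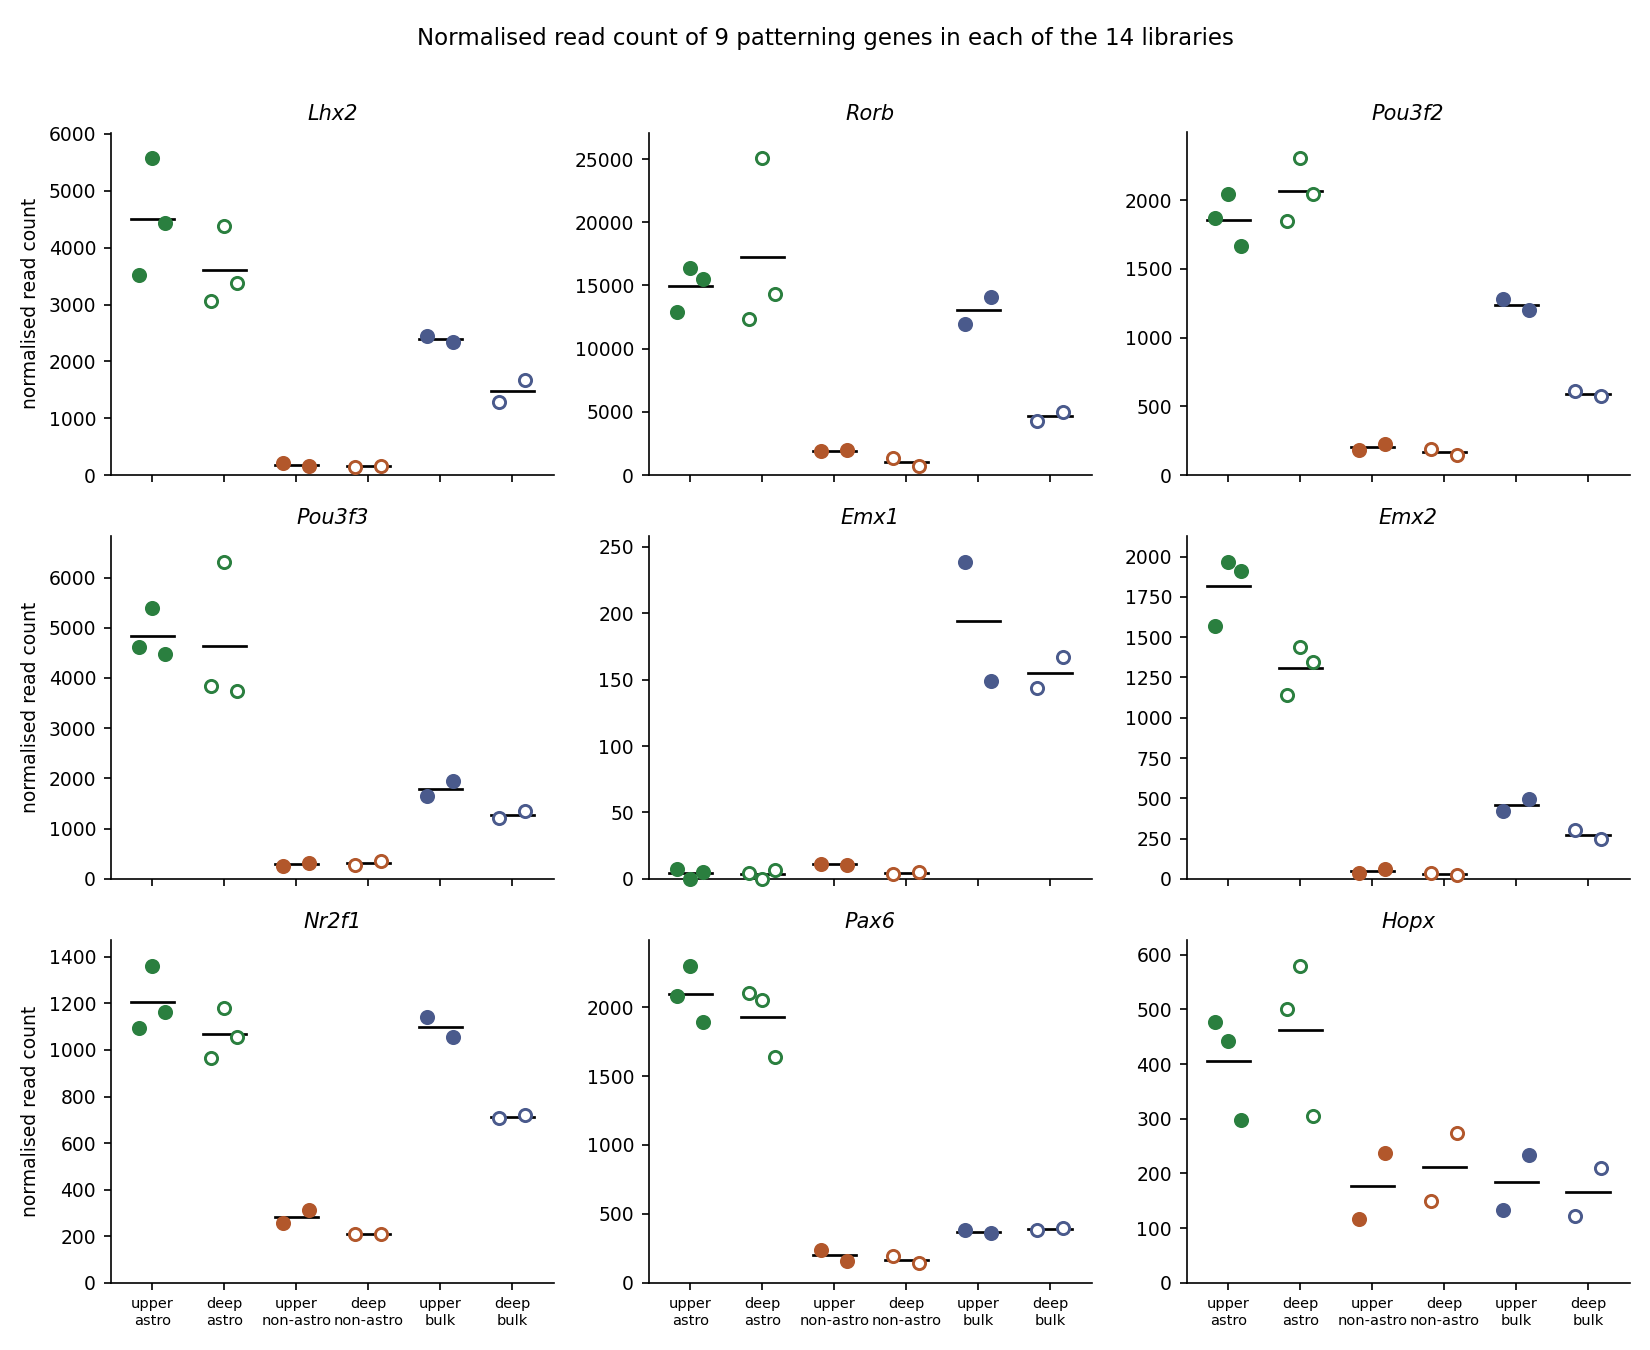
Normalised read count (y axis, linear from 0, a separate scale per gene) of each library in 6 groups. Points are libraries in order of replicate number (filled for upper layers, open for deep layers), and bars are group means. In 8 of the 9 genes the 6 astrocyte libraries lie above the 4 non-astrocyte libraries, and Emx1 is high only in the bulk libraries.

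Every astrocyte library was above every non-astrocyte library for 8 of the 9 genes, all but Emx1, and 21.7% of the 22575 genes tested had this pattern. Every astrocyte library was above every bulk library for 6 of the 9, all but Emx1, Rorb and Nr2f1, beside 23.2% of the genes tested. Because the genes were chosen on these contrasts, nothing is read from these counts. All 9 passed the filter on low values, a level of 10 in at least 2 libraries, Emx1 through the bulk tissue and upper layer non-astrocytes. The level in non-astrocytes was 2.62% (Emx2) to 44.8% (Hopx) of that in astrocytes for the 8 genes, while the 10 astrocyte markers left 1.45% to 26.8%, with a median of 2.48%. Emx2 lay closest to that median, followed by Lhx2 at 4.15%. What part carried-over astrocyte RNA had in the non-astrocyte levels was not tested.

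**Figure D2:**
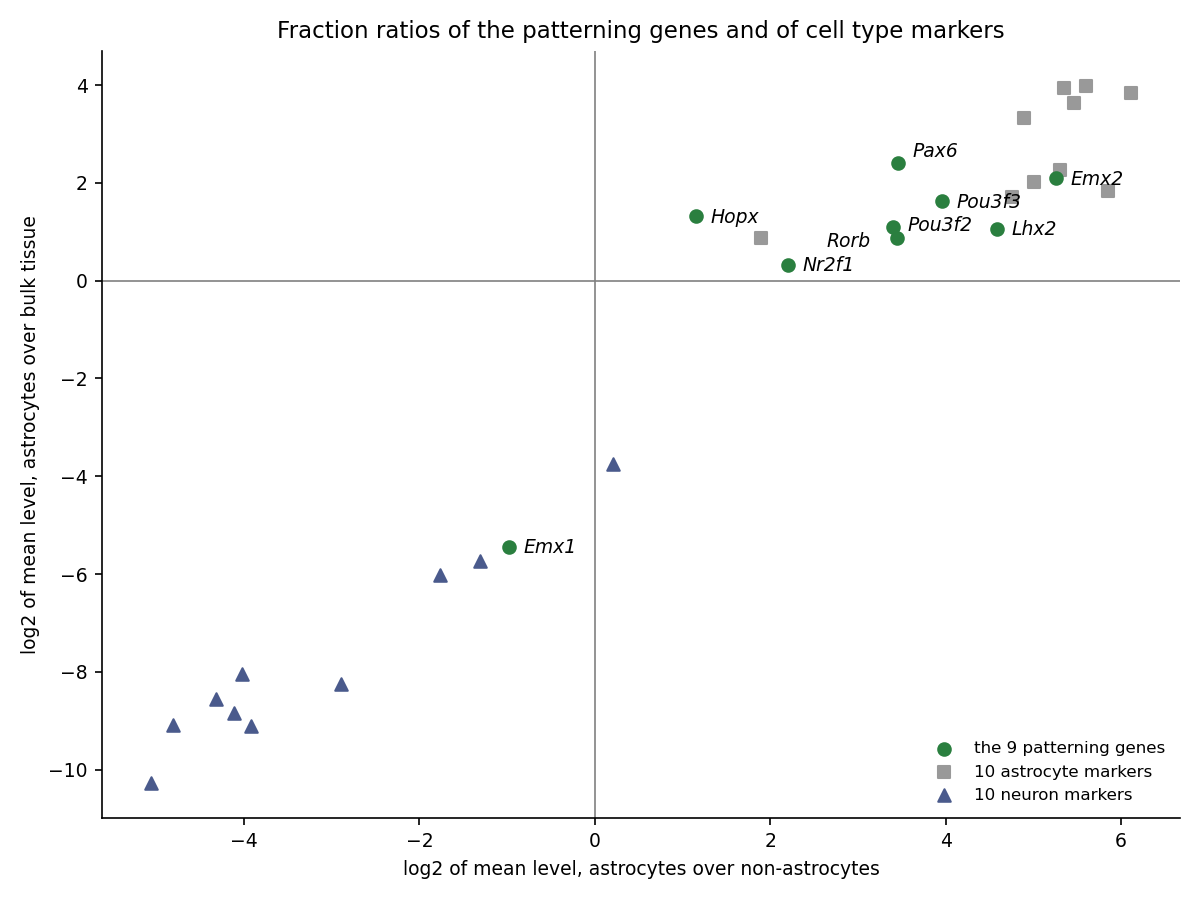
Log2 ratio of mean levels of astrocytes over non-astrocytes (x axis) and of astrocytes over bulk tissue (y axis) for the 9 genes (circles), 10 astrocyte markers (squares) and 10 neuron markers (triangles). The axes share the astrocyte libraries, and each point is a ratio of means over 6, 4 and 4 libraries. Emx1 lies with the neuron markers, and the other 8 genes lie to the upper right, Emx2 among the astrocyte markers.

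Division by the annotated exon length of each gene gives levels per kilobase, an approximate scale for comparing genes. Which transcript forms were in use, and how evenly the amplified RNA covered them, was not examined. The order depends on this division: by read count alone, Pax6 (mean 2012) stood above Hopx (434) in astrocytes. In astrocytes the order by mean level per kilobase was Rorb (1454 ± 421, SD, n = 6), Lhx2 (924 ± 211), Pou3f3 (639 ± 132), Emx2 (520.1 ± 108), Pou3f2 (351 ± 39.4), Hopx (286 ± 73.9), Nr2f1 (223 ± 26.5), Pax6 (172 ± 19.1) and Emx1 (1.85 ± 1.498). Neighbours in this order overlapped in range everywhere except that Emx1 stood apart below Pax6. In non-astrocytes Rorb (133 ± 51.5, SD, n = 4) and Hopx (128 ± 48.5) overlapped each other at the top and no other gene reached their range. By layer, Rorb stood above Hopx without overlap in the upper layer, and Hopx was first and overlapped Rorb in the deep layer. In bulk tissue Rorb (798 ± 446, SD, n = 4) and Lhx2 (442 ± 126) led, overlapping over both layers together but not within either layer, and Pax6 (32.5 ± 1.42) was the lowest, below Emx1 (80.0 ± 20.1) without overlap. Per kilobase, Pax6 and Emx1 thus changed places between astrocytes and bulk tissue. By read count alone they did not, with Pax6 at a mean of 380 and Emx1 at 175 in bulk tissue.

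The layers were then compared within each fraction, a contrast that the description of the genes does not name, although layer results of these data were also known when they were chosen. In upper against deep layer astrocytes, limma called none of the 9 genes at an adjusted p below 0.05, and edgeR and DESeq2 called 0 as well. By limma 1 of the 9 had an unadjusted p below 0.05, beside 2334 of all 22575 genes. Over all genes limma called 0.0797% in this comparison, 18 of 22575, so few genes of any kind were called. The gene with the unadjusted p below 0.05 was Emx2, which averaged 1816 ± 217 in upper and 1307 ± 153 in deep layer astrocytes (SD, n = 3 each), a log2 difference of 0.47 with a limma standard error of 0.22 and an adjusted p of 0.480. Its upper libraries were all above its deep libraries, yet the difference did not pass the adjustment over all genes. The share of all genes with this order of libraries was not counted, so nothing is read from it. Lhx2 had a log2 difference of 0.31 (95% interval −0.10 to 0.73), Nr2f1 0.18 (−0.14 to 0.49), Pax6 0.12 (−0.27 to 0.50) and Pou3f3 0.10 (−0.32 to 0.52). Rorb had −0.15 (−0.68 to 0.39), Pou3f2 −0.15 (−0.49 to 0.18), Hopx −0.17 (−0.92 to 0.59) and Emx1 0.14 (−1.54 to 1.82). For Pou3f2 the interval excludes an upper layer level above 1.13 times or below 0.71 times the deep layer level, while for Emx1 and Hopx the intervals are too wide to limit the difference usefully. In 6 of the 9 genes replicate 2 was the highest astrocyte library in both layers, a count of 3 (Lhx2, Rorb and Pou3f3) when values were scaled to total reads. Same-numbered astrocyte libraries deviated together over all genes (r of 0.149 to 0.203 for the 3 pairs). With the replicate number as a block within each fraction, limma called 188 genes between the astrocyte layers in place of 18, and none of the 9 among them.

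In non-astrocytes limma called none of the 9 genes, and 0.00443% of all genes, 1 of 22575. Of the 9, 2 had an unadjusted limma p below 0.05, beside 871 of all 22575 genes. Rorb had the lowest unadjusted p of the 2 below 0.05, with 1919 ± 45.3 in upper and 1030 ± 429 in deep layer non-astrocytes (SD, n = 2 each), a log2 difference of 0.96 and a limma adjusted p of 0.651. The other was Nr2f1, with 284 ± 40.1 in the upper and 210.3 ± 0.977 in the deep layer and a log2 difference of 0.42 (limma adjusted p of 1.00). Both had every upper library above every deep one, with 2 libraries a side, and the share of all genes with this pattern was not counted. EdgeR and DESeq2 called 0 of the 9 in this fraction.

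Bulk tissue differed between layers for 2 of the 9 genes. Rorb averaged 13045 ± 1504 in upper and 4639 ± 531 in deep layer bulk tissue (SD, n = 2 each), a log2 difference of 1.49 with a standard error of 0.31 and a limma adjusted p of 0.0468. Pou3f2 averaged 1239 ± 55.3 in upper and 590.2 ± 25.96 in deep layer bulk tissue, a log2 difference of 1.07 with a standard error of 0.19 and a limma adjusted p of 0.0218. Both rose in the upper layer. Among all genes, limma called 0.159% higher and 0.297% lower in upper layer bulk tissue, 36 and 67 of 22575. Both calls were lost when any of the 4 bulk libraries was left out, with limma adjusted p then 0.199 to 0.469 for Rorb and 0.167 to 0.258 for Pou3f2, while the log2 differences stayed at 1.37 to 1.61 and at 1.023 to 1.11. The Rorb call was also lost without deep layer astrocytes replicate 3 (0.0521), without any upper layer astrocyte library (0.0596 to 0.0668) and without either upper layer non-astrocyte library (0.0661 and 0.0668), which lend their spread to the fit.

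The other 7 genes did not pass in bulk tissue, although 3 of them had an unadjusted p below 0.05. Over all 22575 genes, 1639 had an unadjusted limma p below 0.05 in this comparison. Emx2 averaged 459 ± 52.1 in upper and 274 ± 41.2 in deep layer bulk tissue, a log2 difference of 0.75 (limma adjusted p of 0.414). Lhx2 averaged 2398 ± 73.3 in the upper and 1481 ± 267 in the deep layer, a log2 difference of 0.71 (limma adjusted p of 0.333). Nr2f1 averaged 1097 ± 60.3 in the upper and 714 ± 10.9 in the deep layer, a log2 difference of 0.62 (limma adjusted p of 0.213). Upper and deep bulk libraries did not overlap for these 3 genes, nor for Pou3f3, at 0.49 on the log2 scale. The share of all genes without such overlap was not counted, so nothing is read from this. DESeq2 called Nr2f1 in addition (adjusted p of 0.0495), and limma fitted to the bulk libraries alone called Lhx2, Emx2 and Nr2f1 in addition, 5 in all, in a fit that called 1093 genes in place of 103. Pax6 (−0.07, 95% interval −0.54 to 0.40), Hopx (0.14, −0.78 to 1.06) and Emx1 (0.28, −1.77 to 2.34) showed overlapping layers or a difference near 0. The median over the 9 genes was 0.62 on the log2 scale in bulk tissue, against 0.00 over all genes, and 0.12 in astrocytes, against 0.01.

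Marker sums of the 2 bulk layers stand beside these differences. Oligodendrocyte markers summed to 38104 to 41736 in upper and 126542 to 149351 in deep layer bulk tissue, with 3 of the 7 called lower in the upper layer by limma, which called 0 markers of the other lists. Oligodendrocyte precursor markers summed to 4962 to 5580 in the upper and 8518 to 8715 in the deep layer, and immediate early genes to 31351 to 32771 in the upper and 19715 to 20618 in the deep layer. Neuron markers summed to 128794 to 167198 in the upper and 145640 to 155606 in the deep layer and astrocyte markers to 227410 to 242214 in the upper and 203631 to 228132 in the deep layer. Their part in the Rorb and Pou3f2 differences was not tested.

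**Figure D3:**
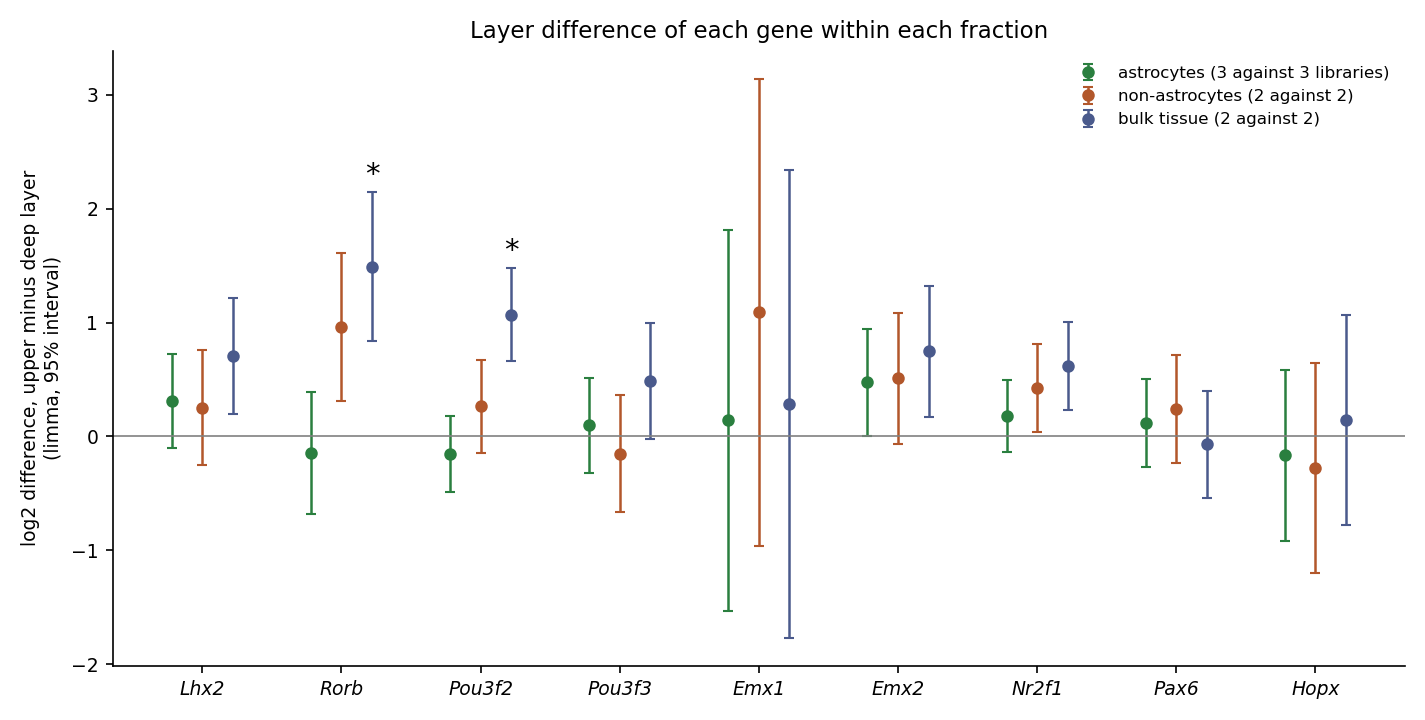
Log2 difference of upper minus deep layer (y axis, limma, with 95% intervals) for the 9 genes within astrocytes, non-astrocytes and bulk tissue. Stars mark the 2 differences with an adjusted p below 0.05, Rorb (1.49) and Pou3f2 (1.07) in bulk tissue, whose astrocyte values are −0.15 and −0.15.

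Whether the layer difference itself differed between fractions was tested as an interaction. For Pou3f2 the layer difference of astrocytes was 1.22 lower than that of bulk tissue on the log2 scale (−1.22, standard error 0.25, limma adjusted p of 0.0789), and for Rorb 1.64 lower (−1.64, standard error 0.39, limma adjusted p of 0.170). Neither passed, and limma called 0.137% of all genes, 31 of 22575. Both had an unadjusted limma p below 0.05, as did 1812 of all 22575 genes. DESeq2 called both, with adjusted p of 0.00946 for Rorb and 0.000726 for Pou3f2, edgeR with TMM scaling called Pou3f2 (0.0442), though not with relative log expression factors (0.0596), and limma with the replicate block within each fraction called Rorb (0.0492). Against non-astrocytes, limma, edgeR and DESeq2 called 0 of the 9, and limma 0.00443% of all genes. The 1 gene of the 9 with an unadjusted p below 0.05 was Rorb, at −1.11 on the log2 scale (limma adjusted p of 0.742). Over all 22575 genes, 1350 had an unadjusted limma p below 0.05 in this comparison. Of 20 cortical neuron transcription factors, limma called Cux1 (log2 1.67, adjusted p of 0.000253) and Cux2 (2.07, 0.00201) higher and 6 others lower in upper layer bulk tissue, led by Tle4 (−1.84, 0.000137) and Nr4a2 (−2.73, 0.000671), and none of the 20 between astrocyte or non-astrocyte layers. For 5 of the 20, Cux1, Cux2, Tle4, Foxp2 and Nr4a2, the layer difference of astrocytes differed from that of bulk tissue (limma adjusted p of 0.0057 to 0.0233), and with counts-per-million scaling Cux2 was no longer called.

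Family members of the 9 genes divided between the fractions. Pou3f4, another member of the Pou3f family, stood at 513 to 607 in astrocytes, against 12.3 to 17.0 in non-astrocytes and 36.1 to 50.7 in bulk tissue, and limma called it higher in astrocytes than in non-astrocytes by 5.15 (adjusted p of 1.17e-12) and than in bulk tissue by 3.66 (4.08e-11) on the log2 scale. Pou3f1, the fourth, stood at 2.18 to 7.09 in astrocytes, against 72.2 to 130.1 in non-astrocytes and 596 to 959 in bulk tissue, with limma log2 differences of −4.44 (adjusted p of 3.71e-09) and −7.32 (1.19e-11). So 3 of the 4 genes were high in astrocytes and Pou3f1 was near the detection limit there. Nr2f2, the second COUP transcription factor gene, was at 17.0 to 38.6 in astrocytes, against 1184 to 1527 in non-astrocytes and 122 to 247 in bulk tissue, with limma log2 differences of −5.78 (adjusted p of 3.68e-12) and −2.94 (7.91e-09), the reverse of Nr2f1. Rora, the close relative of Rorb, was at 6218 to 10045 in astrocytes, against 1465 to 1839 in non-astrocytes and 2822 to 5821 in bulk tissue, and was called higher by 2.10 (adjusted p of 2.48e-09) and 0.88 (4.02e-05).

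**Figure D4:**
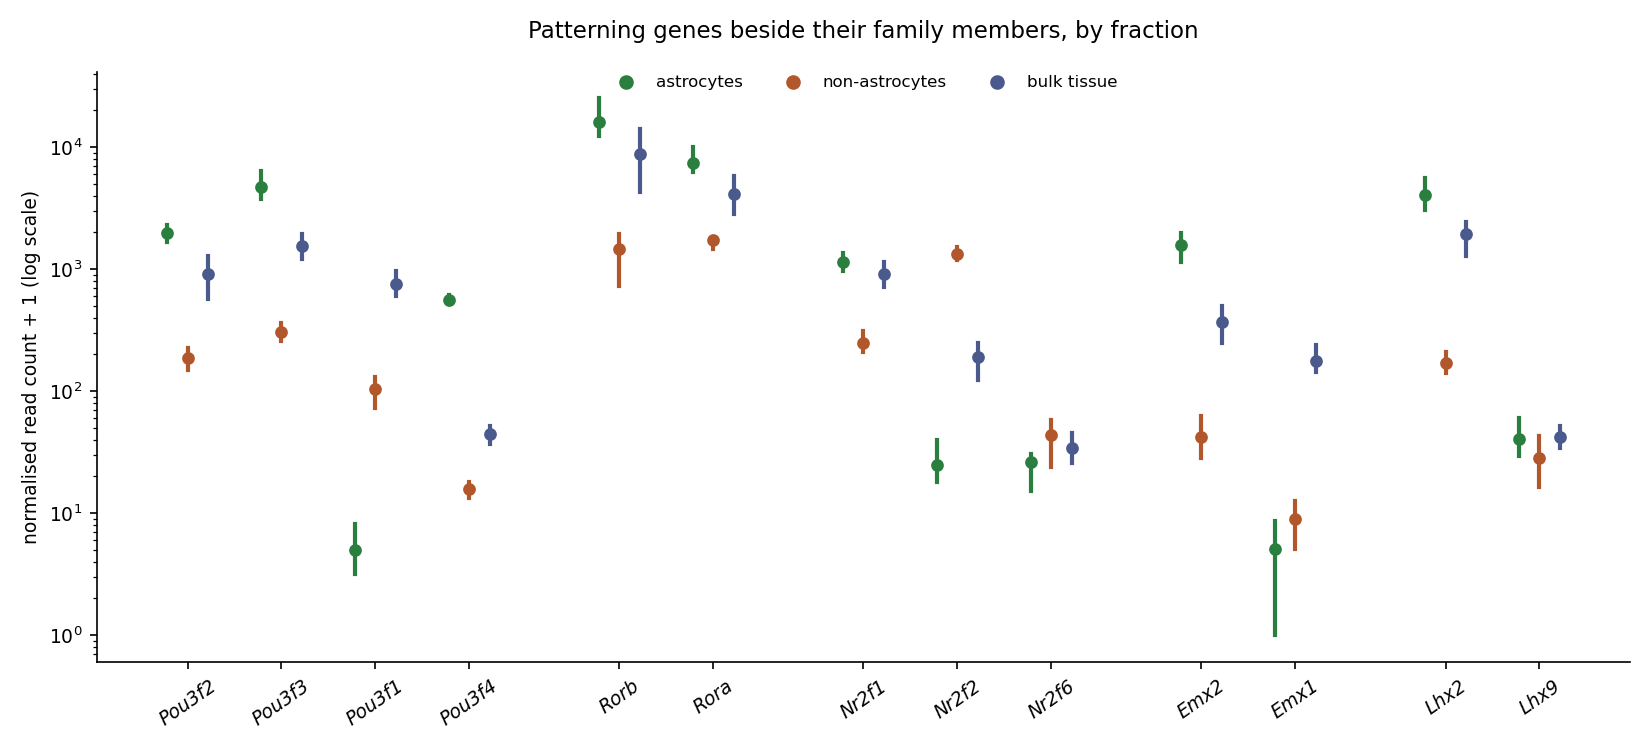
Normalised read count plus 1 (y axis, log scale) of the Pou3f, ROR, COUP, EMX and LIM homeodomain genes in astrocytes (n = 6), non-astrocytes (n = 4) and bulk tissue (n = 4), where points are means and bars run from the lowest to the highest library. Pou3f1, Nr2f2 and Emx1 are low in astrocytes while Pou3f2, Pou3f3, Pou3f4, Rorb, Rora, Nr2f1, Emx2 and Lhx2 are high there.

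Of 13 relatives in all, 9 passed the filter, and limma called 4 higher and 2 lower in astrocytes than in non-astrocytes and 3 higher and 2 lower than in bulk tissue. Of all genes tested, 29.6% passed as higher and 36.8% as lower against non-astrocytes, and 28.8% as higher and 36.1% as lower against bulk tissue, so such calls were common here in both directions. The median log2 difference of the relatives was 0.59 against non-astrocytes, with −0.08 over all genes, and −0.08 against bulk tissue, with −0.10 over all genes. Scaling to total reads moved the median of all genes by −0.18 in the comparison with non-astrocytes and by 0.18 in that with bulk tissue, and no called gene of any list named here turned its sign under it or under TMM scaling. Vax2, the fourth relative called higher than in non-astrocytes (0.95), was not called with counts-per-million scaling.

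Genes without a protein product beside the 9 were also measured. Emx2os, antisense to Emx2, was at 1777 to 1918 in astrocytes, against 56.4 to 96.3 in non-astrocytes and 130.4 to 197 in bulk tissue, with limma log2 differences of 4.52 (adjusted p of 1.09e-12) and 3.52 (1.38e-11). Pantr1 and Pantr2, noncoding genes near Pou3f3, were higher in astrocytes than in non-astrocytes by 4.52 (limma adjusted p of 1.29e-11) and 4.14 (9.70e-12) on the log2 scale. Pantr1 was at 1752 to 3526 in astrocytes, against 68.8 to 154 in non-astrocytes and 1185 to 2184 in bulk tissue, where the upper layer had 2025 and 2184 in 2 libraries and the deep layer 1185 and 1212. A830082K12Rik, beside Nr2f1, was at 1930 to 2770 in astrocytes, against 505 to 820 in non-astrocytes and 1534 to 2639 in bulk tissue. Of 6 such genes in the table, 4 passed the filter, and limma called all 4 higher in astrocytes than in non-astrocytes and 3 higher than in bulk tissue, all but A830082K12Rik.

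Partners of these factors were also measured. Of 9 LIM cofactors and competitors, through which Lhx2 acts or is held back, limma called 2 higher and 7 lower in astrocytes than in non-astrocytes, with a median of −1.57, and 1 higher and 7 lower than in bulk tissue, with a median of −2.65, beside the shares of all genes given above. Ldb2, an adaptor that bridges LIM proteins, was at 7.63 to 25.5 in astrocytes, against 99.8 to 196 in non-astrocytes and 135 to 806 in bulk tissue. In bulk tissue it was 135 and 143 in the upper layer and 789.5 and 806 in the deep layer, a log2 difference of −2.51 (limma adjusted p of 0.00953). Its relative Ldb1 stood at 933 to 1302 in astrocytes, against 1582 to 1946 in non-astrocytes and 693 to 872 in bulk tissue, lower than in non-astrocytes by limma (−0.71, adjusted p of 9.20e-05) and higher than in bulk tissue (0.51, 0.00162). Of 9 partners of COUP and ROR receptors, limma called 2 higher and 5 lower in astrocytes than in non-astrocytes, with a median of −1.11, and 2 higher and 4 lower than in bulk tissue, with a median of −0.24. Zfpm2, a cofactor of COUP receptors, was one of the higher ones (2.40, adjusted p of 7.26e-08) and was lower in upper layer bulk tissue (−1.67, adjusted p of 0.0336), and the coactivator Ncoa1 was the other (1.54, 1.22e-08).

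Other progenitor factors of the cortex were mostly higher in astrocytes. Of 19 tested, limma called 14 higher and 4 lower than in non-astrocytes, with a median log2 difference of 1.81, and 14 higher and 3 lower than in bulk tissue, with a median of 1.93. This list too was chosen with earlier results of these data known. Of all genes, 29.6% passed as higher and 36.8% as lower against non-astrocytes, and 28.8% and 36.1% against bulk tissue. Id4, an inhibitor of basic helix-loop-helix factors, had 1310 ± 241 in astrocytes, 32.1 ± 5.54 in non-astrocytes and 187 ± 23.1 in bulk tissue (SD, n = 6, 4 and 4), and limma called it higher by 5.30 (adjusted p of 4.31e-13) and 2.79 (3.54e-10). Gli3, the Hedgehog pathway repressor, Sox9, which drives gliogenesis, and Nr2e1, which keeps neural stem cells, were higher than in non-astrocytes by 4.68, 4.26 and 3.61 (limma adjusted p of 5.75e-13, 1.12e-11 and 1.94e-11). Limma called 0 of the 19 between layers of astrocytes, non-astrocytes or bulk tissue, while in bulk tissue DESeq2 and limma with the replicate block within each fraction each called 1 higher in the upper layer.

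Likeness to each of the 9 genes over the 14 libraries was described by Pearson correlation of log2 values among 12996 well-expressed genes. Libraries of a fraction share their cells, so these coefficients mostly follow the fractions. Closest to Rorb were Rora (r = 0.980), Nr1d1 (0.979) and Pou3f2 (0.979). Among the genes closest to Pou3f2 were B3galt1 (0.989) and Lrrk2 (0.986), and closest to Pou3f3 were Cxcl14 (0.997), Ntrk2 (0.996) and Lrtm2 (0.994). Lhx2 was most like Rab36 (0.995), Csdc2 (0.992) and Mras (0.991), Emx2 most like Gpt (0.993), Pdzph1 (0.992) and Slc1a2 (0.991), and Pax6 most like Phkg1 (0.997), Prodh (0.995) and Adhfe1 (0.995). Nr2f1 came closest to Mapk4 (0.994), Pantr1 (0.993) and Rgs7 (0.992), Emx1 to Fsd1 (0.986), Nsg1 (0.983) and Rabl2 (0.974), and Hopx to Dctn4 (0.946), Nif3l1 (0.945) and Fibp (0.941). Among the 9 themselves, Lhx2, Rorb, Pou3f2, Pou3f3, Emx2 and Nr2f1 correlated at 0.943 to 0.986 with each other. With these 6, Pax6 correlated at 0.818 to 0.937, Hopx at 0.504 to 0.711 and Emx1 at −0.234 to 0.034. Hopx correlated at 0.757 with Pax6, and Emx1 at −0.465 with Pax6 and −0.660 with Hopx.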

How the data were processed

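Cortex was digested with papain, cells were sorted by GFP, and RNA was amplified before single-end sequencing, per the labels' protocols. The submitters' processing notes name CASAVA, TopHat2 (2.0.11), HTSeq (0.6.1p1), DESeq2 and the GRCm38 build. The deposited signal values, as the authors made them, are reads per gene after division by a library's size factor (0.705 to 1.30); 100% of values came out as whole reads within 1e-06. The characteristics of some sorted samples name bulk tissue; titles and descriptions were followed.

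Values were analysed as log2(value + 1) with limma 3.58.1 in R 4.3.3 (trend and robust options, 6 group means over 14 libraries, 8 residual degrees of freedom, Benjamini-Hochberg adjustment) for 22575 of 32830 genes with a value of at least 10 in at least 2 libraries. Calls required an adjusted p below 0.05. The procedure was tested on simulated data. Alternatives were edgeR 4.0.16 and DESeq2 1.42.0 on the recovered reads, other scalings, pseudocounts and filters, a replicate block, and leaving out each library. Same-numbered astrocyte libraries of the 2 layers deviated together (r of 0.149 to 0.203, against −0.125 to −0.0663 for the crossed pairs). With 2 libraries a group, same-numbered and crossed values mirror each other by construction. They were 0.436 and −0.436 in non-astrocytes and 0.0937 and −0.0937 in bulk tissue. Each of these 2 fractions thus gives 1 value and not 2 separate pairs. The pairing comes from the data, as the labels do not state it. The 9 genes and all gene lists were chosen with earlier results of these data known. Named genes are the 9, list genes called between layers, otherwise up to 4 with the lowest p, and the 3 genes most correlated with each of the 9; a few genes these rules name are not reported here. Sequences come from RefSeq (GRCm38.p6), in which all 9 genes were matched. Each p-value measures precision over 2 or 3 libraries a group, and reads behind a value of the 9 genes ran from 0 (Emx1) to 17692 (Rorb).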

Additional observations from a re-analysis of the deposited data

Results flagged for a closer look

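Rorb in deep layer astrocytes replicate 2 stood apart from the other astrocyte libraries. Its normalised read count was 25095, against 12339 to 16402 in the other 5, and the gap to the nearest library was 0.681 of the range of the 6. Scaled to total reads it was 21213. This was 1 of 27 sets of libraries examined, and such a gap arises by chance in about 1 in 20 sets. Without this library the Rorb difference of upper minus deep layer astrocytes was 0.16 on the log2 scale, against −0.15 with it, and limma called Rorb in neither case. The same library was also the highest of the 6 for Pou3f2, Pou3f3 and Hopx, of which Pou3f3 alone kept that place after scaling to total reads. The cause was not tested.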

How the results depend on the processing

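Of the 9 genes, limma called 2 between layers of bulk tissue, and 5 were called in a fit on the fractions compared only, 1 with a pseudocount of 0.5 (Rorb adjusted p of 0.0557), 1 with the replicate block across fractions (Rorb 0.0532) and 0 by limma without trend and robust. Leaving out a library gave 0 to 2. For the layer difference of astrocytes minus that of bulk tissue, limma called 0, edgeR with TMM 1, DESeq2 2 and the replicate block within fraction 1, and leaving out a library 0. In astrocytes, in non-astrocytes and for the difference between these, 0 of the 9 were called under every alternative run. The replicate block within fraction raised the genes called to 188 in place of 18 in astrocytes, 33 in place of 1 in non-astrocytes, 261 in place of 103 in bulk tissue and 112 in place of 31 for the layer difference of astrocytes minus that of bulk tissue. DESeq2 gave 142, 138, 428 and 191 for these, edgeR with TMM 17, 7, 170 and 50, and the fit on the fractions compared 1, 0, 1093 and 22. Some log2 differences turned sign. For the layer difference of astrocytes minus that of non-astrocytes, counts-per-million scaling gave −0.063 for Lhx2 and −0.0073 for Hopx, and a pseudocount of 5 gave 0.0069 for Emx2. Leaving out a library, upper minus deep ran over −0.35 to 0.16 (Rorb), −0.034 to 0.34 (Pou3f3), −0.76 to 1.11 (Emx1) and −0.44 to 0.041 (Hopx) in astrocytes, over −0.34 to 0.036 (Pou3f3), −0.044 to 0.52 (Pax6) and −0.79 to 0.23 (Hopx) in non-astrocytes, and over −0.053 to 0.62 (Emx1) and −0.26 to 0.54 (Hopx) in bulk tissue. For the layer difference of astrocytes minus that of non-astrocytes the range was −0.14 to 0.25 (Lhx2), −1.85 to 0.021 (Emx1), −0.43 to 0.36 (Emx2), −0.41 to 0.16 (Pax6) and −0.40 to 0.62 (Hopx), and for that of astrocytes minus bulk tissue −1.04 to 0.82 (Emx1) and −0.71 to 0.093 (Hopx). Where a library was left out of a group of 2, the lone library was assumed to vary like the other groups. Depth limits Emx1, with 0 to 8 reads in astrocyte libraries. The causes of these changes were not tested.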

Other observations

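Genes of other forebrain territories and of radial glia were measured beside the 9. Their lists were chosen with earlier results of these data known, and the shares of all genes called between fractions are given above. Of 14 ventral telencephalon factors tested, limma called 3 higher and 4 lower in astrocytes than in non-astrocytes, and 2 higher and 9 lower than in bulk tissue (3 and 7 with counts-per-million scaling). Meis2, a homeodomain factor of the ventral forebrain, was higher by 3.04 and 1.80 on the log2 scale. Of 22 patterning factors of other brain regions in the table, 11 passed the filter, and limma called 2 higher and 2 lower than in non-astrocytes and 1 higher and 2 lower than in bulk tissue.

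Of 14 radial glia genes, limma called 9 higher and 5 lower than in non-astrocytes and 12 higher and 2 lower than in bulk tissue. The genes called higher in both comparisons include Slc1a3 and Gfap, which are also among the 10 astrocyte markers, so these 2 add nothing to the markers. Fabp7, a fatty acid binding protein, and Ptprz1, a receptor phosphatase, were higher than in non-astrocytes by 3.82 and 3.63. The intermediate filament genes Vim and Nes were lower than in bulk tissue, with log2 differences of −0.96 and −2.63. Of 10 proliferation genes, limma called 0 higher and 9 lower than in non-astrocytes, and 1 higher and 2 lower than in bulk tissue. Of those 2 lower calls, that of Cdk1 was lost under each of the 6 alternatives run for this list. With the replicate block within each fraction, 3 genes were called lower, Cdk1 not among them. Limma called 0 genes of these lists between layers of any fraction. DESeq2 and limma with the replicate block within each fraction each called 1 radial glia gene higher in upper layer bulk tissue.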
